A study of Mus musculus with 8 samples.

Results

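Anti-IRF5 CUT&Tag peaks were examined at 6 Toll-like receptor genes: Tlr2, Tlr4, Tlr13, Tlr7, Tlr9 and Cd180. A peak belonged to a gene when the authors' annotation named that gene as its nearest, or listed the peak in the gene's Promoter class. By this rule 128 peaks of the 4 single-library lists were found, 10 in CpG 1, 37 in CpG 2, 39 in control 1 and 42 in control 2. The lists held 13553, 25851, 29226 and 37315 peaks in the same order, near 21224 genes. With the 2 lists of whole conditions, 21295 genes were named. All 6 genes had peaks in both conditions. Every one of the 128 peaks had its receptor as the nearest gene, so the Promoter class added none.

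The cells were wild-type (wt) mouse macrophages grown from bone marrow. One condition had been stimulated with CpG, unmethylated DNA sensed by the receptor TLR9, and the other had received PBS, here called control. Each of the 2 conditions had 2 libraries made with an antibody against IRF5. In CUT&Tag an antibody guides a transposase to the DNA around its target protein, and the released fragments are sequenced. The 4 IgG libraries of the series have no peak list of their own here, and the names of the lists give an IgG library of the same condition as the background of each call. The names for CpG 1 and CpG 2 differ by a letter, and whether both mean the same IgG library was not settled, which bears on every CpG fold enrichment. The dose and duration of CpG, the age and sex of the mice and the number of animals are not in the labels. Nor do they say that the libraries of a condition are separate animals or cultures, so their spread may be technical.

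Toll-like receptors detect microbial molecules and signal through adaptor proteins such as MyD88. IRF5 is a transcription factor activated downstream of MyD88, and in macrophages it is known for driving inflammatory cytokine genes. TLR2 and TLR4 act mainly at the cell surface, while TLR7, TLR9 and TLR13 sense nucleic acids inside endosomes. CD180 resembles TLR4 but lacks the intracellular signalling domain, and it regulates responses to lipopolysaccharide.

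The sequence before the start is printed for 3 of the genes. Tlr9 and Tlr13 are shown because they had a Promoter-class peak in all 4 libraries, and Tlr2 because its upstream window held a match to the NF-kB motif. Each is the 250 bases before the start, 5′ to 3′ on the gene's strand, from RefSeq, build GRCm38.p6. Capitals mark a match to AP-1 (TGANTCA) in Tlr9 and to NF-kB (GGGA, any 4 bases, CC) in Tlr2. The fourth line is a site just after the start of Tlr9, with a match to the reverse complement of the PU.1 core (GAGGAAGT) in capitals.
Tlr9, chr9:106222348-106222597, plus strand: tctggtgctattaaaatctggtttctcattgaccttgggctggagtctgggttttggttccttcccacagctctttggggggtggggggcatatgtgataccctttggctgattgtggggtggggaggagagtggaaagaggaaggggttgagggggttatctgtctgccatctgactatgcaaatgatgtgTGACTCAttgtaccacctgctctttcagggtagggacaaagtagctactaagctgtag
Tlr13, chrX:106143025-106143274, plus strand: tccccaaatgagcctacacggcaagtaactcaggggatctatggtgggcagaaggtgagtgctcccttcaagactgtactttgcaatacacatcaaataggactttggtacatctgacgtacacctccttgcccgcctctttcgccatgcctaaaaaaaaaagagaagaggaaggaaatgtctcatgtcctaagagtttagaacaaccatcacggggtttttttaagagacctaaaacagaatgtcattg
Tlr2, chr3:83841609-83841858, minus strand: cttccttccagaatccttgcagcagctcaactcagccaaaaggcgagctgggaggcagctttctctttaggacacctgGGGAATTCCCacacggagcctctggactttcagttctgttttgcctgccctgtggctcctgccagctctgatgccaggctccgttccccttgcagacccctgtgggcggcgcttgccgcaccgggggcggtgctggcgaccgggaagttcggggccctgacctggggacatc
Tlr9, chr9:106222600-106222623, plus strand: aaagtgtcACTTCCTCaattctct

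Of the 6 genes 4 had a sequence in the RefSeq table, namely Tlr2, Tlr9, Tlr13 and Cd180. Motifs were searched on both strands of windows of 250 bases before to 50 bases after the start. The interferon-stimulated response element (GAAA, any 2 bases, GAAA), the letters most often linked to the IRF family, was found in 0 of the 4 genes and in 3.44% of all 32851 windows. The composite ETS-IRF element (GGAA, any 2 bases, GAAA) was found in 0 of the 4 and in 2.72% of windows. These letters are not in the windows, which says nothing of other sequences IRF5 may bind.

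The AP-1 motif was found in 1 of the 4 genes, Tlr9, from base -58 to -52, and in 7.81% of all windows. The PU.1 core was also found in Tlr9 alone, from base 11 to 18 after the start, and in 3.20% of windows. NF-kB letters were found in Tlr2 at base -172 to -163, with a second match across the start at -8 to 2, and in 20.7% of windows. The AP-1 motif and both NF-kB matches read as matches on either strand. CCAAT was found in Cd180 alone and in 37.4% of windows. No match overlapped that of another motif. A match is a description of the letters and not evidence of binding. The peaks below are in the coordinates of the deposited lists, for which the sources used here give no build, and no position of a peak was set against these sequences. The coordinates of the lists differ from those of the printed sequences. The start of Tlr9 is at 106099796 in the lists, while its printed 250 bases end at 106222597.

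As a check of the cell type, peaks were counted within 1 kb of the starts of marker genes. Of 31 marker genes 20 were named in the lists, and the others were the nearest gene of no peak. Among those others was the macrophage marker Itgam. Of 7 macrophage genes named in the lists (Adgre1, Csf1r, Cd68, Spi1, Mertk, Fcgr1 and Lyz2), 4 had such a peak in CpG 1 and 7 in each of the other libraries. None was found at the 3 named B cell, 2 T cell and 3 dendritic cell markers, although the dendritic cell marker Xcr1 had a Promoter-class peak in all 4 libraries. Among 4 named neutrophil markers 1 had a peak in CpG 1, CpG 2 and control 2 and 0 in control 1. The endothelial marker Pecam1, the only named marker of the stromal list, had one in CpG 2 and both control libraries, and a Promoter-class peak in all 4. The neutrophil marker Elane had a Promoter-class peak in control 2 alone. By that class 3 and 5 of the 7 macrophage genes had a peak in CpG 1 and CpG 2, and 5 and 6 in control 1 and control 2. Over all named genes the shares by class were 10.3%, 22.1%, 23.9% and 28.4% in the same order. Within 1 kb of the start they were 13.9%, 32.4%, 35.6% and 40.3%. A peak near a gene is not its expression, so this is a limited check.

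Receptor genes had fewer peaks in the CpG libraries, with the lowest count in CpG 1, but the share of a library's peaks that lay at these genes overlapped between the conditions. The 6 genes together had 10 and 37 peaks in CpG 1 and CpG 2, against 39 and 42 in control 1 and control 2. The means were 23.5 ± 19.1 in CpG and 40.5 ± 2.12 in control libraries (SD, n = 2 each), a difference of -17 peaks (exact permutation over the 4 libraries, two-sided p = 0.333, the lowest value that 6 possible assignments can give). With every list held to its 13553 strongest peaks by p-value, the 6 genes had 10 and 20 peaks in CpG 1 and CpG 2, against 22 and 22 in control 1 and control 2, a difference of -7. Without CpG replicate 1 the difference was -3.5, and without CpG replicate 2 it was -30.5.

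CpG 1 also had the shortest list. As a share of all peaks of the library, the receptor genes held 0.0738% in CpG 1 and 0.143% in CpG 2, against 0.133% in control 1 and 0.113% in control 2. The highest share was that of a CpG library. The mean shares were 0.108% ± 0.0490 in CpG and 0.123% ± 0.0148 in control libraries (SD, n = 2 each), a difference of -0.0145 percentage points (exact permutation p = 1). It turned to 0.0201 without CpG replicate 1, and was -0.0516 with lists of equal length.

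**Figure D1:**
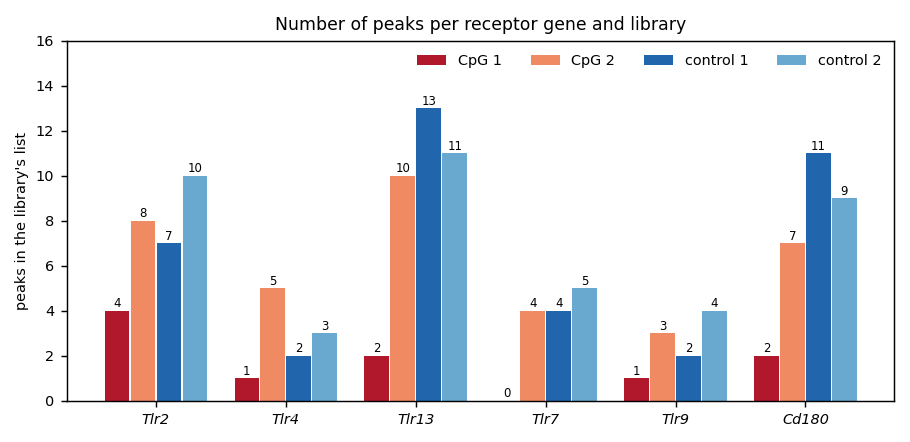
Bars give the number of peaks at each receptor gene in the list of each library, with the number above the bar. Tlr13, Cd180 and Tlr2 have the most peaks in both control libraries and in CpG 2, and CpG 1 has the fewest or equal fewest at every gene.

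Tlr13 had the most peaks in every library but CpG 1, where Tlr2 did. Tlr13 had 2 in CpG 1 and 10 in CpG 2, against 13 in control 1 and 11 in control 2. In CpG 2 and both control libraries this was more than or equal to the count of 98.6% to 99.4% of genes with a peak. Cd180 had 2 and 7 peaks in the CpG libraries and 11 and 9 in the control libraries, and Tlr2 had 4 and 8 against 7 and 10. Tlr7 had 0 and 4 against 4 and 5, Tlr9 had 1 and 3 against 2 and 4, and Tlr4 had 1 and 5 against 2 and 3. The median over all genes with a peak was 1 in CpG 1, CpG 2 and control 1 and 2 in control 2.

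By mean count the control order was Tlr13 (12 ± 1.41), Cd180 (10 ± 1.41), Tlr2 (8.5 ± 2.12), Tlr7 (4.5 ± 0.707), Tlr9 (3 ± 1.41) and Tlr4 (2.5 ± 0.707, SD, n = 2 each). Cd180 overlapped or tied with both of its neighbours in that order, and so did Tlr9. CpG means were 6 ± 5.66 for Tlr13 and 6 ± 2.83 for Tlr2, 4.5 ± 3.54 for Cd180, 3 ± 2.83 for Tlr4, 2 ± 2.83 for Tlr7 and 2 ± 1.41 for Tlr9, and the values of CpG 1 and CpG 2 overlapped between all neighbours. Both control libraries had more peaks than either CpG library at 2 of the 6 genes, Tlr13 and Cd180, against a background of 17.9% of 21224 genes with a peak in any library. The conditions overlapped, or tied, at the other 4 genes, and 0 of the 6 had more peaks in both CpG libraries, against 2.16%. Lists of unequal length stand behind these counts. A peak goes to the nearest gene however far, and whether the room around a gene bears on its count was not tested. The next genes named in the lists lay 7.21 and 6.57 kb from Tlr9 but 588 and 1211 kb from Tlr4. Those of Tlr13 lay 18.3 and 26.6 kb away.

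Peaks of the 4 libraries that shared at least 1 bp were merged, which gave 59 regions at the receptor genes. Of these 8 were called in all 4 libraries (13.6%), against a background of 10.1% of all 55621 merged regions. Regions of both CpG libraries that no control library shared numbered 0, against a background of 1.15%. Regions of both control libraries that no CpG library shared numbered 4 (6.78%), against 8.7% of all regions. In 1 library alone 30 were called (50.8%), against 55.9%. A further 12 regions (20.3%) were called in all libraries but CpG 1, against 12.2% of all regions. With the full lists the classes set by condition were thus near their backgrounds. With all lists held to the length of that of CpG 1, the control class held 4 of 31 regions, a share above its background of 5.87%. With a −log10 q of at least 5 it held 6 of 48, also above its background of 9.73%. The CpG class held 0 in both settings, against backgrounds of 3.48% and 1.07%. Leaving out a library drops 1 requirement of a class: the other 3 libraries shared 20 of 57 regions when CpG 1 was left out, against a background of 24.0%. The control class then held 17 of 53 regions without CpG 2 (background 23.0%), 18 of 52 without control 1 (39.0%) and 13 of 50 without control 2 (31.7%). The CpG class held 7 of 57 without CpG 1 (background 11.6%) and 2 of 53 without CpG 2 (9.67%).

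**Figure D2:**
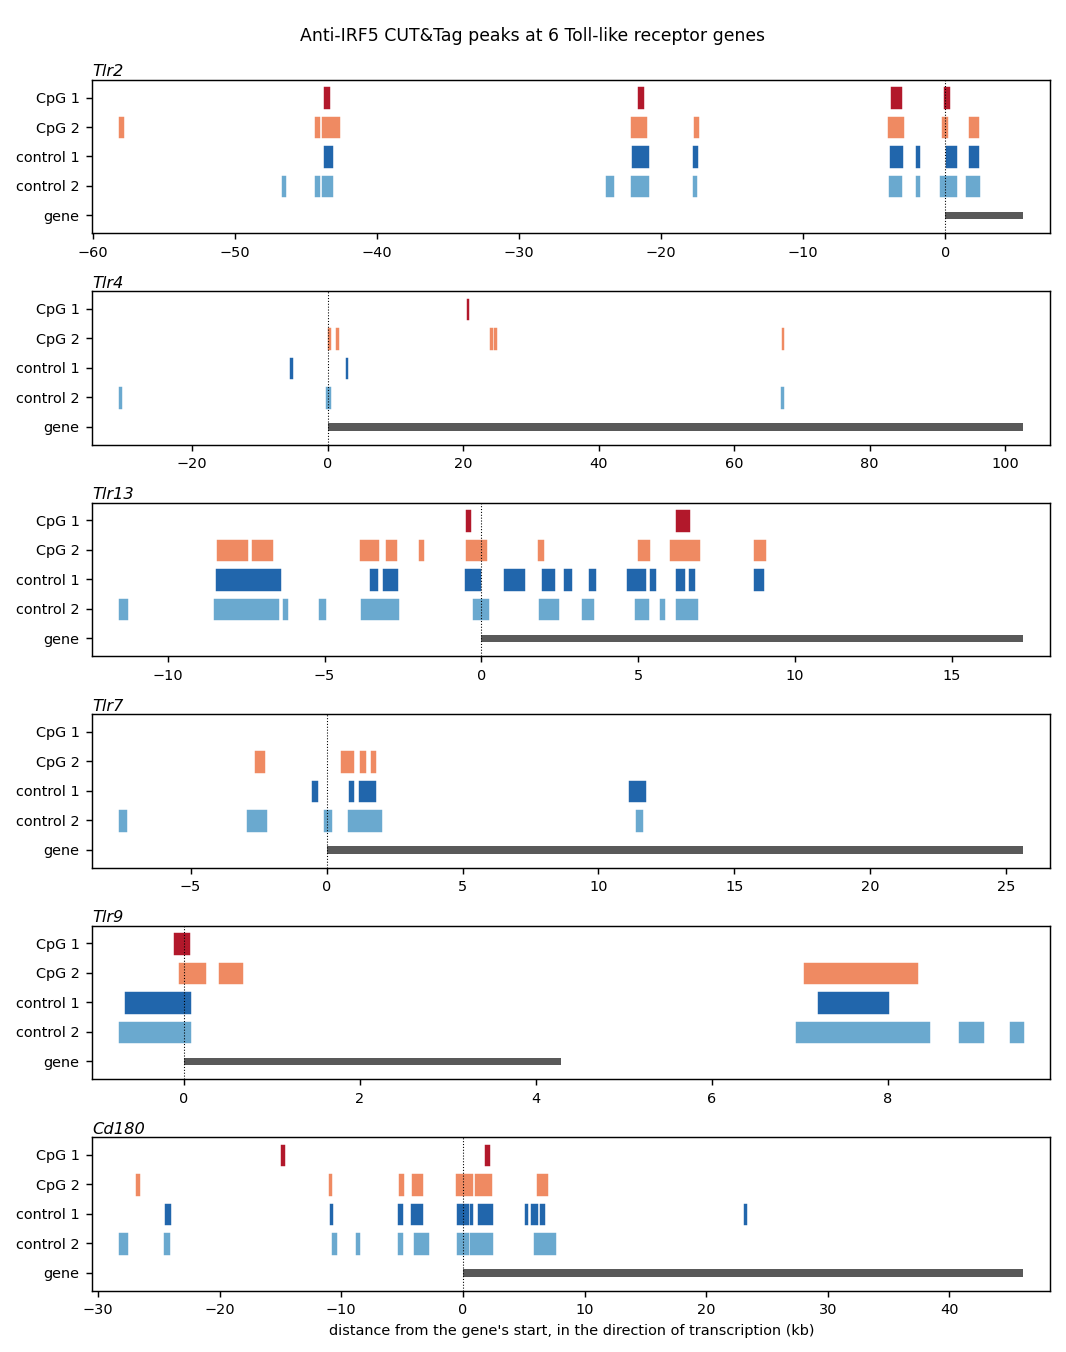
Each panel places the peaks of the 4 libraries by distance from the gene's start in kb, in the direction of transcription, with the gene as a grey bar and the start as a dotted line. Horizontal scales differ between genes. Repeated positions are seen at Tlr2, Tlr13, Tlr9 and Cd180, and few at Tlr4.

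Tlr2, the receptor for bacterial lipoproteins (ENSMUSG00000027995, chromosome 3, 83743578 to 83749074, minus strand), held 4 of the 8 regions called in all libraries. The first covered the start of the gene (83748283 to 83749436) with summits 111 and 69 bp after the start in CpG 1 and CpG 2, against 146 and 382 bp in control 1 and control 2. Its summit pileup was 22 and 23 fragments in CpG 1 and CpG 2, against 27 and 21 in control 1 and control 2. The fold enrichments, the authors' ratio of pileup to local background, were 7.16 and 9.99 in the CpG libraries and 6.38 and 9.40 in the control libraries. Pileups are not scaled between libraries and fold enrichments are ranked only within a list. By that rank the start region stood at percentiles 86.7 and 85.0 in the CpG lists, and 63.5 and 81.8 in the control lists.

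The other 3 lay upstream of Tlr2, at a median summit distance of 3.35, 21.6 and 43.5 kb. At 3.35 kb (83752064 to 83753078) the pileup was 32 and 58 in the CpG libraries and 61 and 53 in the control libraries. This region ranked high in every list, at percentiles 81.5 and 96.2 in CpG and 99.1 and 94.5 in control lists. At 43.5 kb (83791767 to 83792964) the pileup was 55 and 89 in CpG and 57 and 81 in control libraries, so replicate 2 was above replicate 1 in both conditions.

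The region at 21.6 kb (83769989 to 83771179) differed most between CpG 1 and the rest. Its pileup was 37 and 75 in CpG 1 and CpG 2, against 100 and 87 in control 1 and control 2. Its fold enrichment was 2.38 and 11.4 in the CpG libraries, and 16.5 and 14.1 in the control libraries. This put it at percentile 0.664 in CpG 1, against 89.5 in CpG 2, 98.7 in control 1 and 93.5 in control 2. The local background implied by pileup and fold enrichment was 15.0 in CpG 1, against 5.66, 5.11 and 5.24 in CpG 2, control 1 and control 2. Its part in the low rank was not tested.

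At Tlr2 a Promoter-class peak was called in control 1 and control 2 only, 1.95 kb upstream (83750905 to 83751129). It was small, with a pileup of 12 in each control library and percentiles of 54.4 and 44.1. The summits lay 15 bp apart. A region in the gene, 2.02 kb after the start (83746693 to 83747610), was called in all libraries but CpG 1, with fold enrichments of 5.31 in CpG 2, against 10.8 and 17.1 in control 1 and control 2. Its percentiles were 33.8 in CpG 2 and 93.9 and 95.8 in the control libraries. A peak 58.0 kb upstream, called in CpG 2 alone, lay in an intron of the neighbouring gene Tmem131l.

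Tlr4, the receptor for lipopolysaccharide (ENSMUSG00000039005, chromosome 4, 66745820 to 66848521, plus strand), had 9 regions and none in more than 2 libraries. The start region (66745513 to 66746212) was called in CpG 2 and control 2. Its pileup was 18 in CpG 2 and 33 in control 2, with percentiles of 15.5 and 76.2. Its summit lay 163 bp after the start in CpG 2 and 95 bp before it in control 2, and the annotation gave it the Promoter class in control 2 alone. An intron region 67.1 kb from the start was also called in these libraries, with summits 40 bp apart and pileups of 11 in CpG 2 and 20 in control 2. The other 7 regions were each called once. Both regions of Tlr4 called more than once were thus those of replicate 2 of each condition.

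Among the endosomal receptors, Tlr13, a sensor of bacterial ribosomal RNA (ENSMUSG00000033777, chromosome X, 105186809 to 105204099, plus strand), had 16 regions. Its start region (105186282 to 105187009) was called in all 4 libraries, with pileups of 10 and 12 in the CpG libraries and 16 and 12 in the control libraries. Fold enrichments were 4.75 and 6.89 in CpG and 8.55 and 6.45 in control libraries, at percentiles 42.6, 62.9, 86.1 and 56.8. CpG 1 was lowest, and CpG 2 lay between the control libraries. An intron region 6.53 kb after the start was also called in all 4, with fold enrichments of 5.19 and 13.3 in CpG 1 and CpG 2, against 6.54 and 8.44 in control 1 and control 2. Here CpG 2 had the highest rank, at percentile 92.9.

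The strongest region of Tlr13 by fold enrichment in control 2 lay 6.94 kb upstream of the gene (105178262 to 105180386) and was not called in CpG 1. It had 2 peaks in CpG 2, with fold enrichments of 11.8 and 7.96, against 1 broad peak of 13.5 in control 1 and of 19.6 in control 2. Those control peaks were 2040 and 2063 bp long. A region 3.48 kb after the start was called in control 1 and control 2 only. Both of its summits lay at the same base, with a pileup of 11 in each control library. Only in control 1 was a peak called 856 bp after the start, which had that library's highest fold enrichment at Tlr13 (17.1, percentile 98.9).

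Tlr7, a sensor of single-stranded RNA (ENSMUSG00000044583, chromosome X, 166087924 to 166113554, minus strand), had no peak in CpG 1 and 4 in CpG 2, against 4 and 5 in control 1 and control 2. Its main region lay in the first part of the gene, 545 bp after the start and beyond (166111569 to 166113009). It held 3 peaks in CpG 2, 2 in control 1 and 1 in control 2. The strongest had fold enrichments of 7.94 in CpG 2 and 11.6 and 7.54 in control 1 and control 2. Their summits lay at different places, 826, 1650 and 1169 bp after the start. A CpG 2 peak at 1661 bp had 4.51, below the 11.6 of control 1 there. The control 1 peak at 948 bp had 4.15, below the 7.94 of CpG 2. An upstream region at a distance of 2.54 kb had 11.7 in CpG 2 and 12.9 in control 2. A region 11.4 kb after the start was called in control 1 and control 2 only, at fold enrichments of 8.04 and 6.95. The start itself was covered by a peak in control 2 alone, and control 1 had a Promoter-class peak 432 bp upstream. The neighbouring receptor gene Tlr8 was the nearest gene of 1 peak in CpG 2 and 1 in control 2, and of 0 in CpG 1 and control 1.

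Tlr9, the receptor for CpG DNA itself (ENSMUSG00000045322, chromosome 9, 106099796 to 106104082, plus strand), had a Promoter-class peak in every library. The region (106099067 to 106100042) had pileups of 25 and 19 in CpG 1 and CpG 2, against 29 and 23 in control 1 and control 2. The summits lay 48 and 23 bp before the start in the CpG libraries, and 122 and 2 bp before it in the control libraries. Fold enrichments were 4.34 and 7.26 in CpG and 10.2 and 6.74 in control libraries, at percentiles 29.3, 66.8, 92.3 and 59.8. Again CpG 1 was lowest and CpG 2 lay between the control libraries. The implied local background was 5.00 in CpG 1, against 1.75, 1.95 and 2.56 in CpG 2, control 1 and control 2, and its part in the rank was not tested.

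In both control lists the receptor peak with the highest fold enrichment lay beyond the end of Tlr9. It stood 7.72 kb after the start (106106760 to 106108265), between Tlr9 and Alas1, the gene of a haem synthesis enzyme, which runs the other way and has its far end at 106110653 in these coordinates. The pileup was 78 in CpG 2, against 69 in control 1 and 120 in control 2, and no peak was called in CpG 1. Fold enrichments were 11.9 in CpG 2 and 18.8 and 31.8 in control 1 and control 2. The percentiles were 90.5 in CpG 2, where regions of Tlr2 and Tlr13 stood higher, and 99.2 in both control libraries. The 3 summits lay within 12 bp, against a median range of 148 bp over the 8528 regions called in 3 libraries. Which gene the region belongs to cannot be told from its position.

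Cd180 (ENSMUSG00000021624, chromosome 13, 102830065 to 102876137, plus strand) had 12 regions. The merged region over its start and first intron sequence (102829525 to 102832455) was called in all 4 libraries, but the libraries marked different parts of it. Near the start, peaks had a fold enrichment of 9.70 in CpG 2, against 14.8 and 14.3 in control 1 and control 2, and CpG 1 had none. The summit lay 115 bp after the start in CpG 2, and 244 and 251 bp before it in control 1 and control 2. The control peaks were in the Promoter class, and that of CpG 2 was in the exon and 5′ UTR class. About 2 kb into the gene, peaks had fold enrichments of 4.46 and 11.8 in CpG 1 and CpG 2, against 12.3 and 9.12 in control 1 and control 2.

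Upstream of Cd180, a region at 3.89 kb (102825784 to 102827217) had fold enrichments of 3.98 in CpG 2, against 8.17 and 16.2 in control 1 and control 2, at percentiles 8.45, 83.5 and 95.3. Its 3 summits lay within 64 bp. A region 6.46 kb inside the gene had a fold enrichment of 11.1 in CpG 2, against 5.02 and 6.76 in control 1 and control 2, at percentiles 88.4, 31.0 and 60.1. Its pileup was 24 in CpG 2, against 21 and 29 in control 1 and control 2, and its implied background was 1.26 in CpG 2, against 3.39 and 3.44. A region 24.5 kb upstream was called in control 1 and control 2 only, at fold enrichments of 8.50 and 8.09. CpG 1 had no peak at any of these 3 regions.

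**Figure D3:**
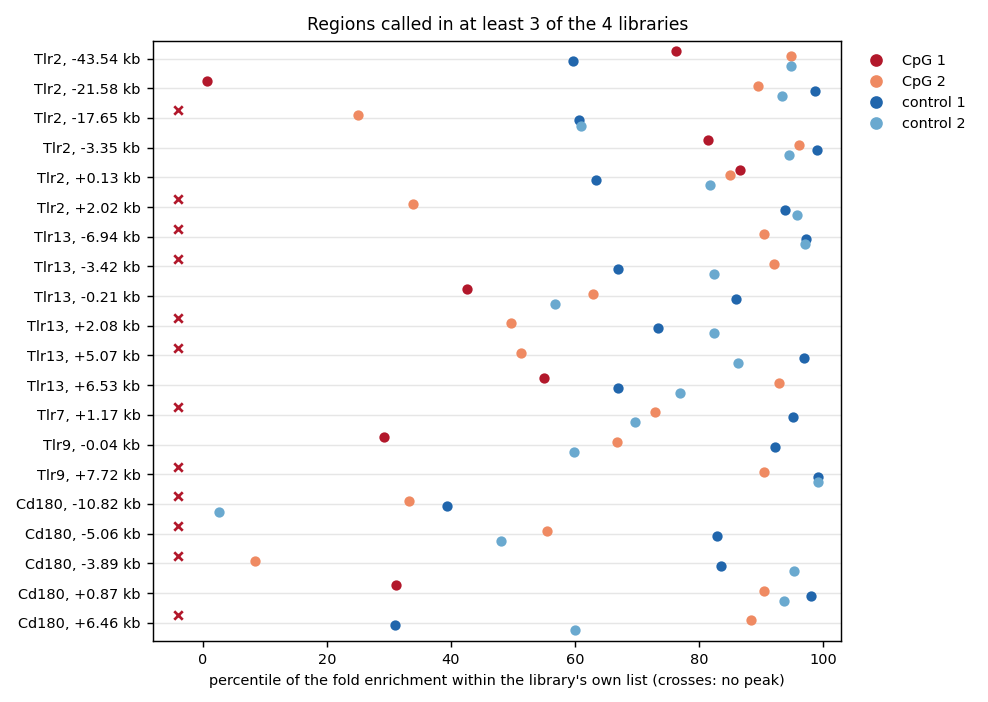
Points give the percentile of the strongest peak's fold enrichment within each library's own list, for the 20 regions called in at least 3 libraries, named by gene and median summit distance from the start. Crosses at the left mark libraries without a peak, which is CpG 1 in each of the 12 regions that lack one. The percentiles come from lists of different lengths and are not a measure of change.

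Summits of the receptor regions lay about as far apart between libraries as those of other regions, or further. Over the 8 receptor regions of all 4 libraries the median summit range was 262 bp, against 190 bp over all 5599 such regions. Over the 12 in 3 libraries it was 190.5 bp, against 148 bp. Over the 9 in 2 libraries it was 71 bp, against 82 bp. By fold enrichment the receptor peaks stood near or above the middle of the lists. Their median percentile was 48.8 and 62.9 in CpG 1 and CpG 2, against 67.0 and 67.7 in control 1 and control 2.

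The Promoter class separated the conditions at the receptor genes, while distance to the start did not. By class, 2 of the 6 genes had a peak in each CpG library, Tlr9 and Tlr13, and 5 in each control library. The difference was -3 genes (exact permutation p = 0.333, the smallest possible), and -1.5 genes with lists of equal length. The background of named genes with a Promoter-class peak was 10.3% in CpG 1, 22.1% in CpG 2, 23.9% in control 1 and 28.4% in control 2. Class peaks in all 4 libraries were found at 2 of the 6, against 13.5% of 9258 genes with one in any library. Class peaks in both control libraries alone were found at 2 of the 6, Tlr2 and Cd180, against 11.1%. In both CpG libraries alone they were found at 0, against 1.5%.

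A rule added after the data were seen counted any peak within 1 kb of the start. By it 3 and 6 genes had a peak in CpG 1 and CpG 2, against 5 and 6 in control 1 and control 2, a difference of -1 gene (exact permutation p = 1). The backgrounds were 13.9%, 32.4%, 35.6% and 40.3% of named genes in the same order. Tlr2, Tlr13 and Tlr9 then had a start peak in all 4 libraries, against 19.1% of 10736 genes with one in any library. No receptor gene was then called in both control libraries alone, against a background of 12.5%, or in both CpG libraries alone, against 1.14%. At Cd180 the Promoter-class summits lay before the start and that of CpG 2 after it, but the Promoter-class peak of Tlr13 in control 2 also had its summit after the start, by 20 bp. At Tlr2 the class peaks were the small ones 1.95 kb upstream.

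**Figure D4:**
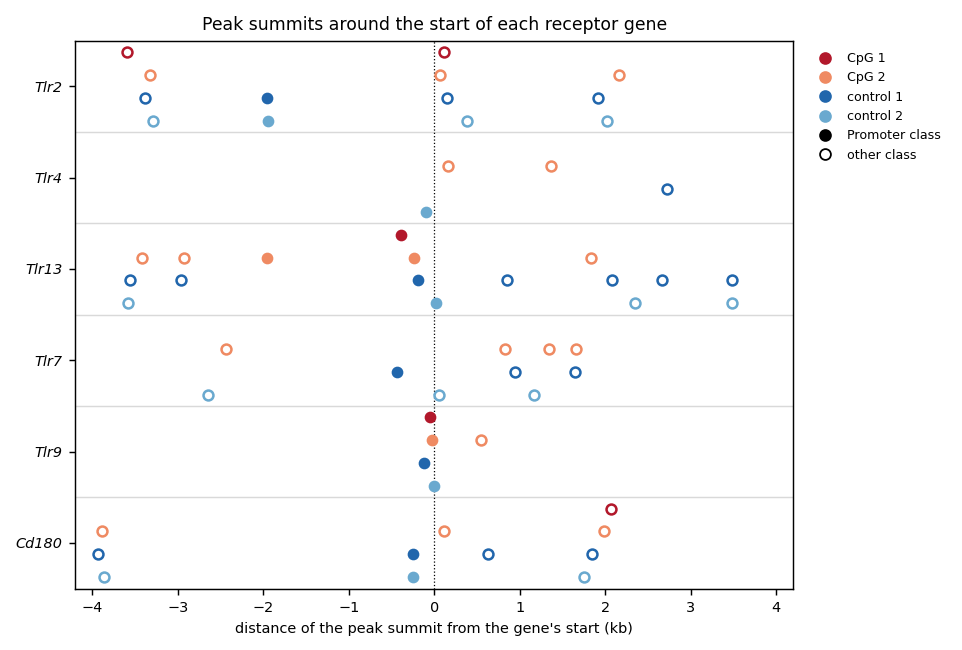
Each point is a peak summit within 4 kb of the start, by its distance from the start in kb, with 1 row per library within each gene. Filled points are in the authors' Promoter class. At Tlr9 all 4 libraries have a filled point within 122 bp before the start, while at Cd180 the point of CpG 2 lies just after the start and is open.

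The authors' lists of whole conditions held 26 receptor peaks for CpG and 38 for control. Of the 59 regions 18 (30.5%) overlapped a peak of both lists, against 20.4% of all merged regions. The CpG list alone held 4 (6.78%), against 4.36%, and the control list alone held 18 (30.5%), against 27.5%. Neither list held 19 (32.2%), against 47.8%. All 4 found in the CpG list alone had been called in CpG 2 and in no other library. They lay 58.0 kb upstream of Tlr2, 1.36 and 24.6 kb after the start of Tlr4, and 26.8 kb upstream of Cd180. Of the 20 regions called in 3 or 4 libraries 16 were in both condition lists, against 72.3% of 14127 such regions.

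The genes most like Tlr9 and Tlr13 were sought among 1152 named genes with a Promoter-class peak in all 4 libraries. Likeness was the largest difference, over the 4 libraries, in the percentile of the strongest such peak. For Tlr9 the nearest were Gm29477, within 6.09 percentile points, and Ddias and Prcp, both within 6.97. For Tlr13 they were Xcr1, the chemokine receptor gene and dendritic cell marker named above, within 8.58 points, and Ddias and Prcp, both within 10.8. Ddias and Prcp had the same percentiles in all 4 libraries. Only 4 libraries enter this measure, and it says nothing of shared function.

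The rest of the pathway was followed through 38 further genes, of which 30 had a peak assigned to them in at least 1 list. Promoter-class peaks were called at 5 and 14 of the 30 in CpG 1 and CpG 2, against 17 and 15 in control 1 and control 2. The backgrounds over all named genes, 10.3%, 22.1%, 23.9% and 28.4%, apply here as well. Among the other Toll-like receptors, 1 and 1 of 5 had one in the CpG libraries, against 2 and 2 in the control libraries. Tlr6, a partner of TLR2, had one in all 4 libraries, with fold enrichments of 3.64 and 10.1 in CpG 1 and CpG 2, and 15.2 and 19.7 in control 1 and control 2. Tlr1, the other partner of TLR2, had one in control 2 alone and the flagellin receptor gene Tlr5 in control 1 alone. Tlr3, for double-stranded RNA, and Tlr8 had none, and Tlr11 and Tlr12 were the nearest gene of no peak in the lists.

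Co-receptors, chaperones and trafficking factors had Promoter-class peaks at 3 and 6 of 13 genes in the CpG libraries, against 9 and 7 in the control libraries. Hsp90b1, a chaperone of Toll-like receptors, and Cnpy4 had them in all 4. Unc93b1, which carries the endosomal receptors out of the endoplasmic reticulum, and Cd14, a co-receptor of TLR4, had them in all but CpG 1, where each had another peak within 1 kb of the start. Ly96, whose product MD-2 binds TLR4, had them in all but CpG 2. Ctss, a lysosomal protease gene, had one in control 1 and control 2 only, also by any peak within 1 kb. Ly86, whose product MD-1 pairs with CD180, Cd36, Cnpy3 and Ctsl had none. Lrrc59 had one in all but CpG 1, Lgmn in CpG 2 and control 1, and Ctsb in control 1.

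Adaptors and regulators had them at 1 and 7 of 12 genes in the CpG libraries, against 6 and 6 in the control libraries. The adaptor gene Myd88 had one in all 4 libraries, and Pik3ap1, an adaptor of phosphoinositide signalling, in both control libraries alone. Ticam1, an adaptor of TLR3 and TLR4, Irak3, an inhibitor of MyD88 signalling, and Traf3, a ubiquitin ligase gene, had one in all but CpG 1. Irak4, a kinase gene acting next to MyD88, had one in CpG 2 and control 1. Ticam2 and Irak1 had one in CpG 2 alone, and Tasl, an adaptor gene for IRF5 activation, in control 2 alone. The rule of any peak within 1 kb gave other libraries for these genes. By it Irak4 was called in all 4 libraries, Ticam2 in all but control 1 and Tasl in all but CpG 2. Irak1 was called in CpG 2 and control 1. Tollip, Traf6 and Il1rl1 had no peak by either rule. Lbp, Tirap, Sarm1, Irak2, Slc15a4 and Sigirr were the nearest gene of no peak in the lists. Over the 30 genes a peak within 1 kb of the start was found at 12 and 18 in the CpG libraries, against 21 and 22 in the control libraries. The backgrounds were 13.9%, 32.4%, 35.6% and 40.3% of named genes in CpG 1, CpG 2, control 1 and control 2. By either rule CpG 1 had the fewest, as it did over all named genes.

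**Figure D5:**
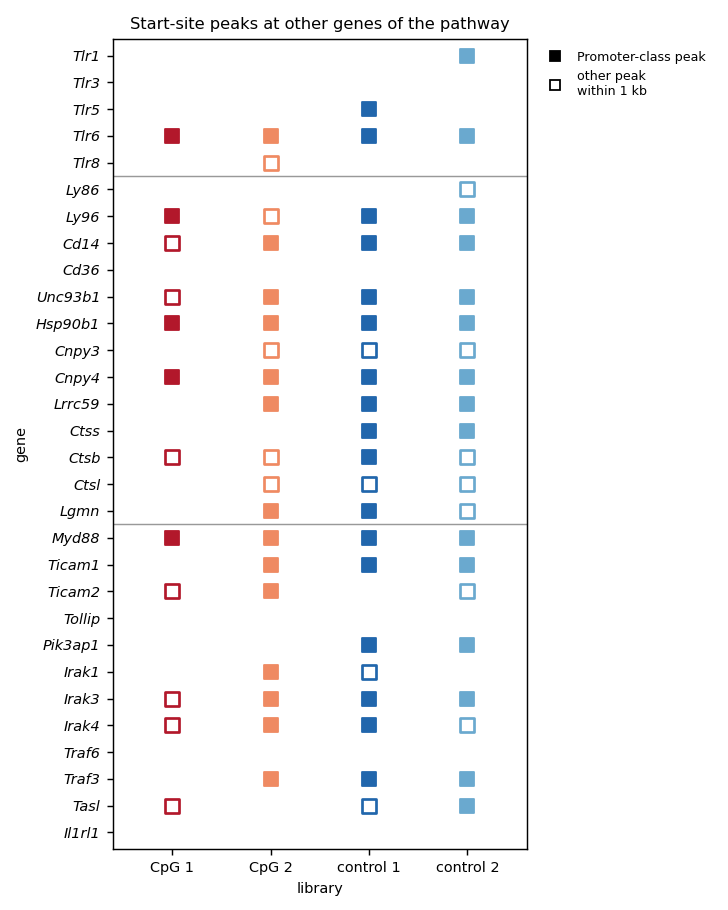
Rows are the 30 further pathway genes named in the lists, in the 3 groups of the text, and columns are the libraries. Filled squares mark a Promoter-class peak and open squares another peak within 1 kb of the start. Rows filled in all 4 columns are Tlr6, Hsp90b1, Cnpy4 and Myd88.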

How the data were processed

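Anti-IRF5 CUT&Tag was measured in wild-type macrophages given CpG or PBS, with 2 libraries each, grouped by their titles. Per the submitters' processing notes, the tools were MACS2 2.1.0, BWA 0.7.12, fastp 0.20.0 and ChIPseeker, and no build is stated. The authors deposited 4 peak lists of single libraries and 2 of conditions, each with the pileup signal at the summit, the fold enrichment, a ratio to local background, and the −log10 of each p-value and q-value, whose damaged headers were read from order and values.

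Peaks on 21 chromosomes were used, and broken lines (281 to 1017 a list) were skipped. Depth is unknown, since the lists hold no read totals, so no interval is given and no model was fitted to peak heights. The lowest −log10 p of the deposited lists was 5.00 to 5.04. The implied background is (pileup + 1) over the fold enrichment, minus 1, assuming the formula of MACS2. Its lowest value was 1.31 in CpG 1 and 0.886 in CpG 2, against 0.989 in control 1 and 1.01 in control 2, and its median at receptor peaks was 3.10, 1.26, 1.43 and 1.39.

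Positions count from the start of the gene in the lists, with peaks and summits by the strongest peak of a library. Peaks sharing 1 bp were merged. The test between conditions was an exact, two-sided permutation of libraries. Merging and the test were tested on simulated data. Alternatives were other list lengths, thresholds, overlaps and left-out libraries. The named genes were the receptors, all receptor, co-receptor and chaperone genes of the pathway list, its adaptors with Promoter-class peaks in all, in none or in the libraries of 1 condition, and the 3 genes most like a receptor. The other adaptors were named after their values were seen. Members and lists were chosen with earlier results of these data known. Python 3.11.15, pandas 2.3.3, numpy 2.4.6 and matplotlib 3.10.9 were used.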

Additional observations from a re-analysis of the deposited data

How the results depend on the processing

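Differences of means, CpG minus control, were taken for receptor peaks per library, their share of all peaks and receptor genes with a Promoter-class peak. They stayed negative with lists of equal length (-7 peaks, -0.0516 percentage points, -1.5 genes) and with a −log10 q of at least 5 (-17.5, -0.0289, -3.5). The share of CpG 2 was not below both control libraries in the full lists (0.143%, against 0.133% and 0.113%). Nor was it with a −log10 q of at least 5 (0.147%, against 0.151% and 0.115%). The first 2 differences were also negative with the Promoter class alone, and the third with any peak within 1 kb. In the latter CpG 2 had 6 genes, against 5 and 6 in control 1 and control 2. The nearest gene alone gave the main values again by construction, since every receptor peak had its receptor as the nearest gene. No alternative could pass the threshold with 2 libraries a condition. Leaving out 1 library gave differences of -30.5 to -3.5 peaks, -3 to -3 genes and -0.0492 to 0.0201 percentage points, the last reversed without CpG replicate 1. With a replicate block, permuting within replicate numbers, the differences stayed -17 peaks, -3 genes and -0.0145 percentage points by construction, with exact permutation p of 0.5, 0.5 and 1. Between the replicate differences of the conditions r was 0.0353 over 55621 regions. A low correlation of calls cannot tell whether libraries of the same replicate number share an animal or culture. The count of regions in both CpG libraries alone was 0, and 4 of 42 by the lists of whole conditions (8.51% of all regions there), 0 to 7 when leaving out 1 library. The 0 were of 52 regions without control 1 (background 1.79%) and of 50 without control 2 (3.95%). Regions in both control libraries alone numbered 4, and 2 of 37 with peaks up to 1 kb apart joined (9.07% of all regions there). They numbered 19 of 42 by the lists of whole conditions (54.3% of all regions there). When leaving out 1 library they numbered 4 to 18, the 4 being of 57 without CpG 1 (background 10.3%). Regions in all 4 numbered 8, and 5 with a −log10 q of at least 5, 8 to 20 when leaving out 1 library, the highest without CpG replicate 1. The higher counts without 1 library follow from the requirement it drops, and the cause of the other counts that moved was not tested. Unknown depth limits what the shorter list of CpG 1 can show.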

Other observations

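Some pathway genes had many peaks and few at the start. Cd36, a scavenger receptor gene and co-receptor of TLR2, was the nearest gene of 7 and 13 peaks in CpG 1 and CpG 2, against 21 and 23 in control 1 and control 2, with no peak within 1 kb of its start in any library. Pik3ap1 was the nearest gene of 4 and 17 peaks in the CpG libraries, against 26 and 20 in the control libraries, and Lgmn, a lysosomal protease gene, of 3 and 11 against 14 and 19. Il1rl1, a receptor of the interleukin 1 family, had 4 and 4 peaks in the CpG libraries, against 4 and 2 in the control libraries, all more than 1 kb from its start.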
